A study of Mus musculus with 15 samples.

Results

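Kruppel-like factors are zinc-finger transcription factors, and 10 of their genes were followed here: Klf2, Klf3, Klf4, Klf5, Klf6, Klf7, Klf9, Klf10, Klf13 and Klf15. A probe was taken when it was not a control spot and its gene name on the array equalled one of these symbols, which gave 11 of 55681 probes, 2 for Klf13 and 1 for every other gene. The genes were chosen with levels from these same arrays known, so their values describe these samples and are not independent evidence. Of the 10 genes, 9 were well above background on 15 of 15 arrays and were tested. Klf15, which is known from glucose and amino acid metabolism in liver and muscle, was well above background on 0 of 15 arrays and was not tested. Its processed signal ran from 3.37 to 8.50 intensity units, and is not read further.

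The family members share a DNA-binding end that recognises CACCC and GC-rich sequences, while their remaining parts differ and recruit activators or repressors. Klf4 and Klf5 are known from epithelia, where Klf4 accompanies differentiation and barrier formation and Klf5 accompanies growth of the basal or crypt compartment. Klf2, their close relative, is needed for lung development and is known for quiescence in endothelium and lymphocytes. Klf3 recruits the corepressor CtBP, and Klf9, Klf10 and Klf13 recruit Sin3a.

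The study measured RNA of LSZ2 and LSZ4, 2 mouse non-small cell lung cancer lines, on 15 Agilent 1-colour arrays to ask about the part played in tumours by Siva, a gene induced by p53. Control cells carried a short hairpin RNA against GFP in the vector pLKO.1 (shGFP, 1 LSZ2 and 2 LSZ4 arrays) or against LacZ in the vector LL37 (shLacZ, 2 arrays of each line). Knockdown cells carried shSiva1 or shSiva2 in pLKO TRC2.0, with 2 arrays for each hairpin and line, which makes 7 control and 8 shSiva arrays. Virus came from 293T cells. Every culture except those with shLacZ was selected in puromycin for 3 days, and cells were collected at subconfluent density 2 days after plating. Each line stands for 1 tumour line, with no uninfected cells among the arrays. The labels do not say whether shGFP1 and shGFP2 are replicates or separate hairpins (they are treated as replicates here), nor whether replicates were separate cultures, so p-values cover the spread among these arrays alone, which may be technical. In RNA from whole cultures, fewer cells with a transcript and less of it per cell cannot be told apart.

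A level is given throughout as log2 of the processed signal less the 75th percentile of its array, so 0 is the array's upper quartile, and levels are compared only within a probe. The 7 control arrays came from 1 slide and the 8 shSiva arrays from a second one. Siva knockdown therefore cannot be told apart from slide and vector, whereas shSiva1 and shSiva2 shared slide, vector and selection. The 75th percentile of signal ran from 425 to 1029 intensity units, lowest on the LSZ4 shGFP arrays (425 and 455), with 49.0% to 60.6% of spots well above background and 0 saturated. Siva1, the target, fell from 5.77 ± 0.55 (SD, n = 7) with control hairpins to 3.23 ± 0.55 (SD, n = 8), a limma difference of -2.52 (SE 0.26, adjusted p = 3.12e-05), and read 0.84 (SE 0.27, adjusted p = 0.0395) higher with shSiva2 than with shSiva1. Of the epithelial markers, Cdh1, Krt8, Krt18 and Krt19 were well above background on 15 of 15 arrays, Epcam on 14 and Cldn4 on 11. Of the lung markers, Sftpb was on 11 of 15, Scgb1a1 on 8, and Nkx2-1, Sftpc and Foxj1 on 0.

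The bases before the start sites of Klf2, Klf4 and Klf13 are shown because Klf4 was called with Siva knockdown and Klf2 and Klf13 between the Siva hairpins, and because they are in the RefSeq promoter table (build GRCm38.p6), which holds 8 of the 10 members. Each line gives the 200 bases before the start, 5′ to 3′ on the gene's strand. Capitals mark CACCC or GGGCGG on either strand (GGGTG and CCGCCC on the other strand, with overlaps allowed) and a MEF2 motif. Klf2 lies at chr8:72318862-72319061 (plus strand), Klf4 at chr4:55532476-55532675 (minus strand) and Klf13 at chr7:63938916-63939115 (minus strand).
Klf2: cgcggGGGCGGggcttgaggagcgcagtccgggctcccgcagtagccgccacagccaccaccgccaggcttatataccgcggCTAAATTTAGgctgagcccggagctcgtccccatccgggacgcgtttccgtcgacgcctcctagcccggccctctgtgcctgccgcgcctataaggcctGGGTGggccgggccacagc
Klf4: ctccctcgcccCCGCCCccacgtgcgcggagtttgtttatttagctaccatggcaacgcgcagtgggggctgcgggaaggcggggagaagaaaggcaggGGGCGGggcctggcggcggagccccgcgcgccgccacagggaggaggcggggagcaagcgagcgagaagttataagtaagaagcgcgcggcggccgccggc
Klf13: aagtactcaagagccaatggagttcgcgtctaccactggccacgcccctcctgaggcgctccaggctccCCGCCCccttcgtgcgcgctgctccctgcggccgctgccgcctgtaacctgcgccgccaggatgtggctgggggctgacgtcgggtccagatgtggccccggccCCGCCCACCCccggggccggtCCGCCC

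Over the 250 bases before the start, CACCC occurred in 6 of the 8 member promoters and in 52.0% of the 32851 promoters of the table. GGGCGG occurred in 7 of 8 and in 32.7% of all. GC content of the 8 ranged from 59.2% to 78.4%, against a median of 52.4% over all promoters. Klf4 held 4 matches to GGGCGG and 0 to CACCC, Klf2 held 2 and 1, and Klf13 held 3 and 1, where 1 match of each kind shares a base. A MEF2 motif was found in 1 of the 8, Klf2, beginning 118 bases before its start, and in 2.92% of all promoters. Such matches describe the letters and not a bound site.

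Klf4 (probe at chr4:55540167-55540226, mm9) read lower with both Siva hairpins in both lines. In LSZ2 its level was 4.60 on the shGFP array and 4.59 and 4.78 with shLacZ, against 3.62 and 3.92 with shSiva1 and 3.81 and 3.61 with shSiva2. In LSZ4 it was 4.61 and 4.60 with shGFP and 3.40 and 3.86 with shLacZ, against 2.52 and 3.18 with shSiva1 and 2.69 and 3.01 with shSiva2. The arms did not overlap within either line. In each line the highest shSiva array was under the lowest control (8 of 8 shSiva arrays in all), while the lines themselves overlapped. How many of all genes have arms that separate within a line was not counted, for Klf4 or for any member below. In a limma fit over all 22908 genes tested, with line as a term, Klf4 fell by 1.10 (SE 0.18, adjusted p = 0.00156), to 46.5% of its control signal. Klf4 was the 1 of 9 tested members called in this comparison, in which 9.99% of all genes were called, 4.32% higher and 5.67% lower. The median change of the 9 was -0.09, beside -0.11 over all genes.

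Taken line by line, Klf4 read -0.92 (SE 0.27, adjusted p = 0.167) in LSZ2, where 0 of 9 members and 0.939% of all genes were called (limma; 1 of the 9, Klf4, had an unadjusted p under 0.05). In LSZ4 Klf4 fell by 1.26 (SE 0.25, adjusted p = 0.0113) as the 1 member called, beside 4.52% of all genes, 2.13% lower. The difference between the lines' effects was 0.35 (SE 0.37, adjusted p = 0.899) for Klf4 and passed for 0 of 9 members and 0% of all genes; 0 of the 9 had an unadjusted p under 0.05. In LSZ4 the size of the difference varied with the control hairpin. The LSZ4 mean of either Siva hairpin differed from shGFP by -1.75 and from shLacZ by -0.78. In LSZ2 the differences from shGFP were -0.83 and -0.88, and those from shLacZ -0.92 and -0.98. Without both LSZ4 shGFP arrays, an alternative chosen after seeing the data, Klf4 read -0.78 (adjusted p = 0.140) in LSZ4 and fell by 0.85 (adjusted p = 0.00406) over both lines. With controls limited to shLacZ the pooled value was -0.86 (adjusted p = 0.0141), and limited to shGFP -1.42 (adjusted p = 0.00755).

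**Figure D1:**
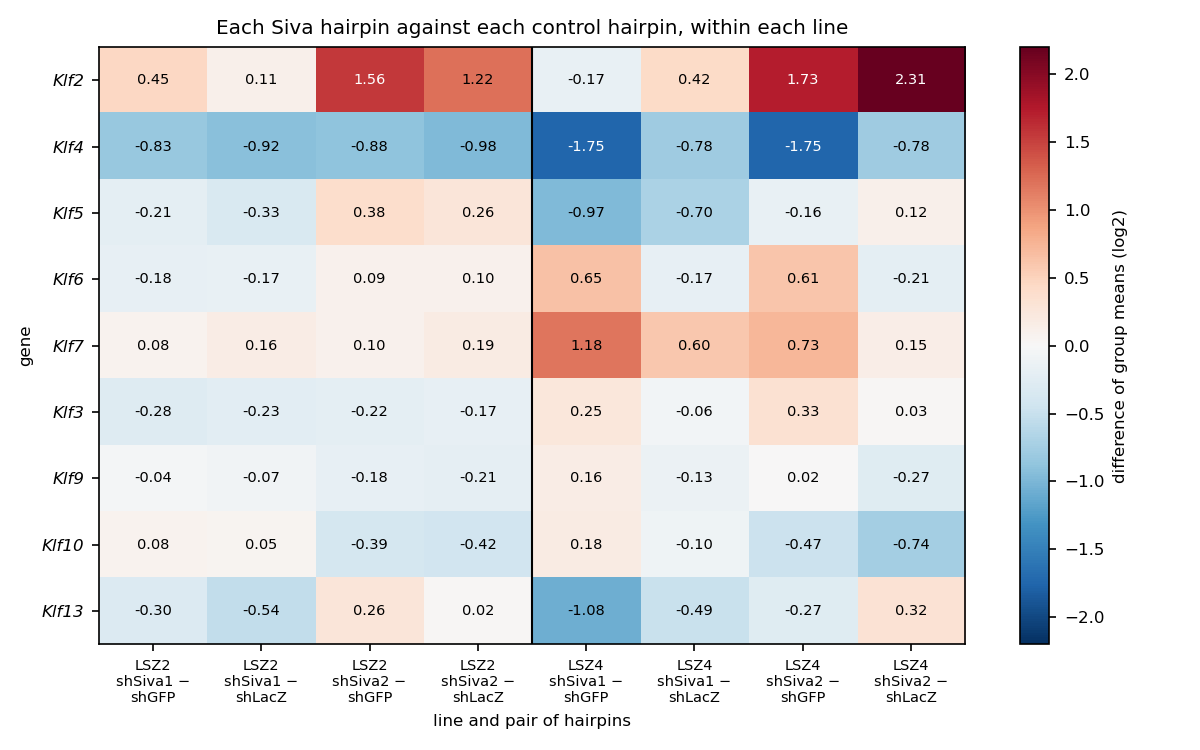
Differences of group means (log2) for each Siva hairpin less each control hairpin, with genes in rows and the pairs of hairpins of LSZ2 (left of the line) and LSZ4 (right) in columns; LSZ2 shGFP is 1 array and every other group 2. The Klf4 row is negative in all 8 cells, from -0.78 to -1.75, and the Klf2 row is at its highest in the 4 shSiva2 cells, from 1.22 to 2.31.

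Klf2 (probe at chr8:74845137-74845196, mm9) was high in the 4 shSiva2 arrays and not in the others. In LSZ2 it read 0.63 with shGFP, 0.85 and 1.09 with shLacZ, 0.89 and 1.27 with shSiva1, and 2.17 and 2.21 with shSiva2. In LSZ4 it read 1.27 and 1.34 with shGFP, 0.37 and 1.07 with shLacZ, 0.78 and 1.50 with shSiva1, and 2.86 and 3.21 with shSiva2. All 4 shSiva2 arrays lay above all arrays of the other hairpins in their line, while shSiva1 overlapped the controls. Klf2 rose by 1.50 (SE 0.25, adjusted p = 0.000649) from shSiva1 to shSiva2, 2.83-fold, with group means 1.11 apart in LSZ2 and 1.90 apart in LSZ4. Against the controls both hairpins together gave 0.94 (SE 0.33, adjusted p = 0.0894). With shSiva2 alone Klf2 rose by 1.69 (adjusted p = 0.000404), and with shSiva1 alone it read 0.17 (SE 0.22, adjusted p = 0.612). The pooled value passed once LSZ4 shSiva1 replicate 1 was left out (1.14, adjusted p = 0.0294).

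Between the Siva hairpins 4 of 9 members were called, 3 higher and 1 lower with shSiva2, beside 21% of all genes, 11% higher and 10% lower. Their median difference was 0.07 and that of all genes 0.14. Besides Klf2, these were Klf5, Klf13 and Klf10. For each of the 4, all 4 shSiva2 arrays lay on the same side of all shSiva1 arrays of their line. These genes were picked by the call on the same comparison, so the separation is no further support. Klf15, not tested for lack of signal, also had all 4 shSiva2 arrays above shSiva1. The share of all genes separated in this way was not counted.

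Klf5, the growth-associated epithelial factor, read 3.57 and 3.84 with shSiva1 and 4.35 and 4.25 with shSiva2 in LSZ2, and 3.65 and 4.07 against 4.61 and 4.73 in LSZ4. Its controls were 3.92 with shGFP and 3.97 and 4.10 with shLacZ in LSZ2, and 4.78 and 4.87 with shGFP and 4.35 and 4.76 with shLacZ in LSZ4. In both lines shSiva1 lay below every control, while shSiva2 lay above the controls in LSZ2 and among them in LSZ4. Klf5 rose by 0.71 (SE 0.17, adjusted p = 0.00839) from shSiva1 to shSiva2. With shSiva1 alone against control Klf5 fell by 0.58 (adjusted p = 0.0383), and with both hairpins together it read -0.23 (SE 0.18, adjusted p = 0.469).

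Klf13, a repressor and an activator of the chemokine gene Ccl5 in T cells, moved alike on its 2 probes. The probe used in the fit read 1.57 and 1.94 with shSiva1 and 2.28 and 2.35 with shSiva2 in LSZ2, and 1.81 and 2.28 against 2.70 and 3.002 in LSZ4. Its control levels were 2.05 with shGFP and 2.25 and 2.35 with shLacZ in LSZ2, and 3.12 and 3.12 with shGFP and 2.26 and 2.81 with shLacZ in LSZ4. The shSiva1 arrays were low and the shSiva2 arrays lay among the control levels, with 1 shSiva1 array reaching the lower shLacZ array in LSZ4. Klf13 rose by 0.68 (SE 0.19, adjusted p = 0.0215) from shSiva1 to shSiva2 on this probe and by 0.73 (SE 0.21, adjusted p = 0.0225, adjusted over all tested probes) on the other. The call was lost in 4 of the 15 fits that left out an array (without LSZ2 shSiva1 replicate 1, LSZ4 shSiva1 replicate 1, LSZ2 shSiva2 replicate 2 or LSZ4 shSiva2 replicate 2), with differences from 0.56 to 0.68 and adjusted p up to 0.0693. With shSiva1 alone against control Klf13 fell by 0.63 (adjusted p = 0.0467).

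The Klf5 and Klf13 probes are shown because both genes moved together and their probes share letters. Of the 55 pairs of member probes aligned without gaps, this pair had the most equal bases, 29 of the 40 that overlap, and the others had 17 to 25. Capitals mark the equal bases. The Klf5 probe spans chr14:99702656-99712388 and the Klf13 probe chr7:71082854-71082913, both on mm9.
Klf5: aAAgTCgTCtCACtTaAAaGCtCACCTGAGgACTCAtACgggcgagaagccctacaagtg
Klf13: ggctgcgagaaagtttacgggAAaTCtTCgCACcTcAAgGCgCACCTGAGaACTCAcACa
The other Klf13 probe, at chr7:71032482-71032541, had 20 equal bases with the Klf5 probe and rose by the 0.73 given above. Whether either transcript adds signal to the other's probe was not tested.

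Klf10, a target of TGF-beta that represses through Sin3a (probe at chr15:38224255-38224314, mm9), was the member that fell with shSiva2. It read 3.04 and 3.18 with shSiva1 and 2.62 and 2.65 with shSiva2 in LSZ2, and 3.19 and 3.18 against 2.70 and 2.39 in LSZ4. Controls lay from 2.97 to 3.14 in LSZ2 and from 2.98 to 3.30 in LSZ4, so that shSiva1 overlapped the controls and all 4 shSiva2 arrays lay below them. Klf10 fell by 0.56 (SE 0.13, adjusted p = 0.00618) from shSiva1 to shSiva2, to 67.9%, and with shSiva2 alone against control by 0.51 (adjusted p = 0.0278). After normexp background correction the difference between the hairpins was -0.45 (adjusted p = 0.109).

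**Figure D2:**
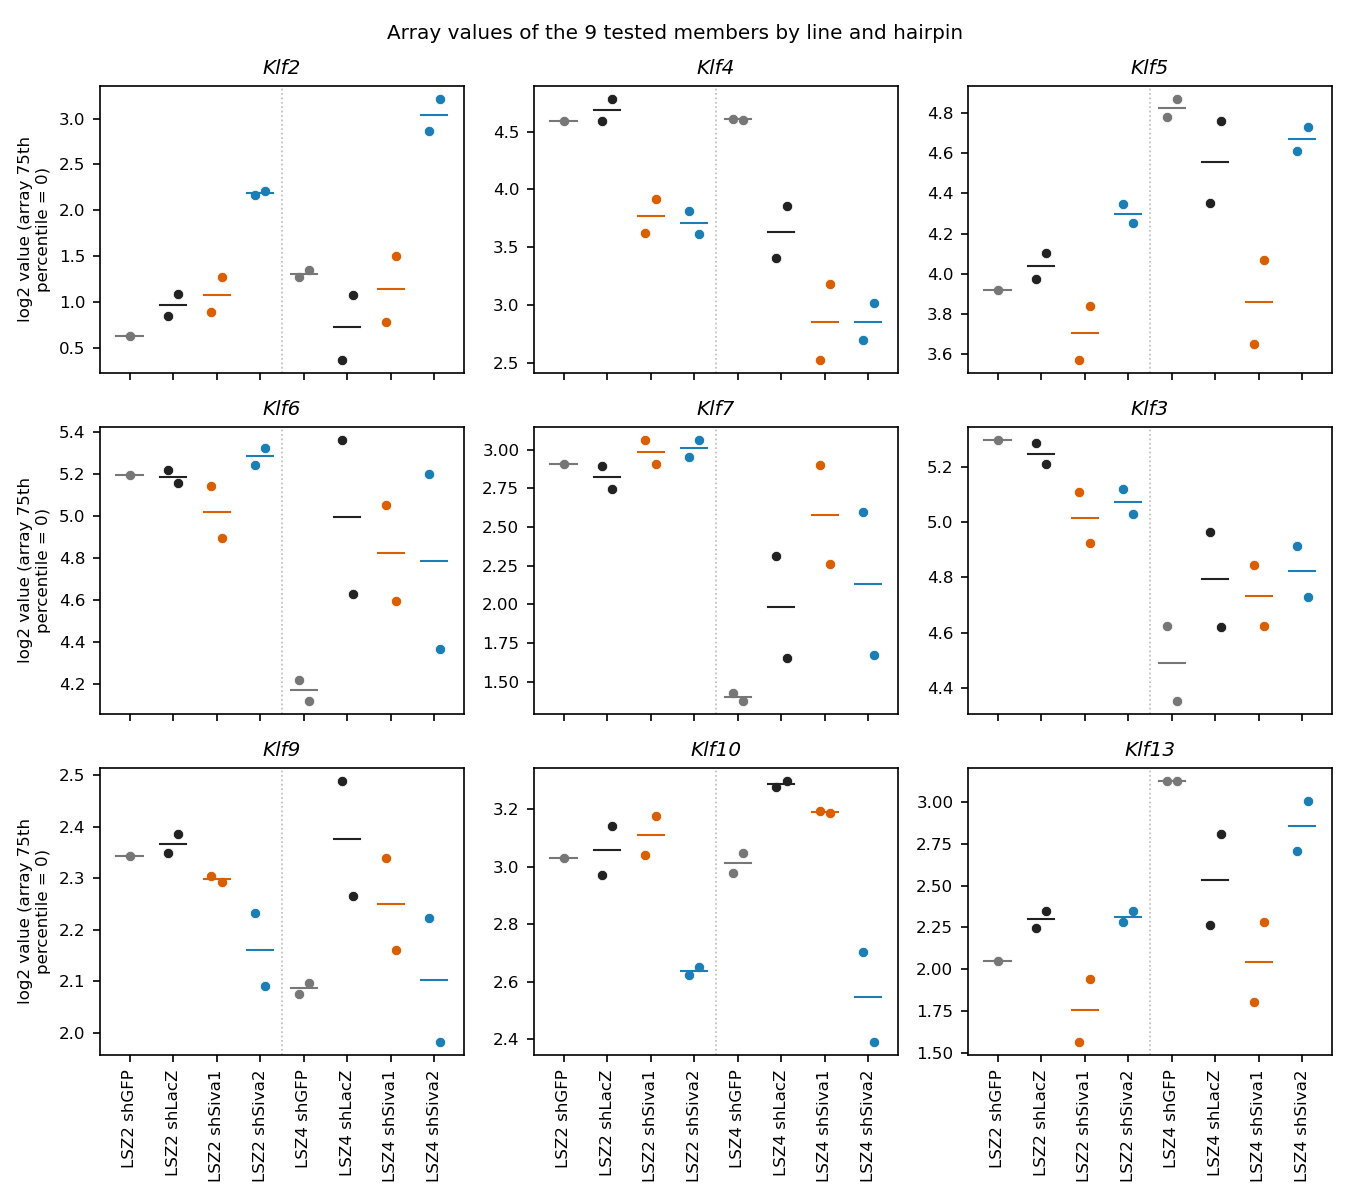
Level of each tested member on every array (points, log2 with the array's 75th percentile at 0) and the mean of each line and hairpin (bars), LSZ2 left and LSZ4 right of the dotted line; the vertical scale differs between genes. Within each line Klf4 is lower in the shSiva groups than in the controls, and Klf2 is high and Klf10 low with shSiva2. The 2 arrays of several LSZ4 groups lie far apart for Klf6 and Klf7.

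Klf6 and Klf7 form another branch of the family. Klf6, which is induced by injury and growth signals and is known as a tumour suppressor (probe at chr13:5869371-5869430, mm9), read from 5.15 to 5.22 on the LSZ2 controls and from 4.90 to 5.32 with shSiva. In LSZ4 it read 4.22 and 4.12 with shGFP, 5.36 and 4.63 with shLacZ, 5.05 and 4.59 with shSiva1, and 5.20 and 4.37 with shSiva2. Its arms overlapped in both lines, and the pooled difference was 0.10 (SE 0.19, adjusted p = 0.775).

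Klf7, known from neurons and fat cells (probe at chr1:64082265-64082324, mm9), read 2.90 with shGFP and 2.89 and 2.75 with shLacZ in LSZ2, and 3.06 and 2.91 with shSiva1 and 2.95 and 3.06 with shSiva2. All LSZ2 shSiva arrays lay above the controls, by a small margin. In LSZ4 it read 1.43 and 1.38 with shGFP, 2.31 and 1.65 with shLacZ, 2.90 and 2.26 with shSiva1, and 2.59 and 1.67 with shSiva2, where the arms overlapped. The pooled difference was 0.43 (SE 0.19, adjusted p = 0.175), and 6 of 8 shSiva arrays lay above every control of their line. In LSZ4 alone the 0.66 (SE 0.25, adjusted p = 0.149) became 0.87 (adjusted p = 0.0202) without LSZ4 shLacZ replicate 1 and 0.89 (adjusted p = 0.0358) without LSZ4 shSiva2 replicate 2. Without LSZ4 shLacZ replicate 1, 25.9% of all genes were called in LSZ4, against 4.52% in the main fit.

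Klf3, the partner of CtBP (probe at chr5:65221309-65221368, mm9), read from 5.21 to 5.30 on the LSZ2 controls and from 4.92 to 5.12 with shSiva, without overlap. In LSZ4 the controls ran from 4.35 to 4.96 and the shSiva arrays from 4.62 to 4.91, inside that range. Klf9, a gene induced by glucocorticoid and thyroid hormone (probe at chr19:23240410-23240469, mm9), was likewise lower on the LSZ2 shSiva arrays (2.09 to 2.30) than on the controls (2.34 to 2.39), and overlapped in LSZ4 (1.98 to 2.34 against 2.08 to 2.49). Klf3 differed by -0.03 (SE 0.12, adjusted p = 0.910) and Klf9 by -0.09 (SE 0.11, adjusted p = 0.643) over both lines. The sign of the Klf3 value turned with median scaling (0.04) and with quantile normalization (0.10). A p that misses the threshold does not show equal levels.

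**Figure D3:**
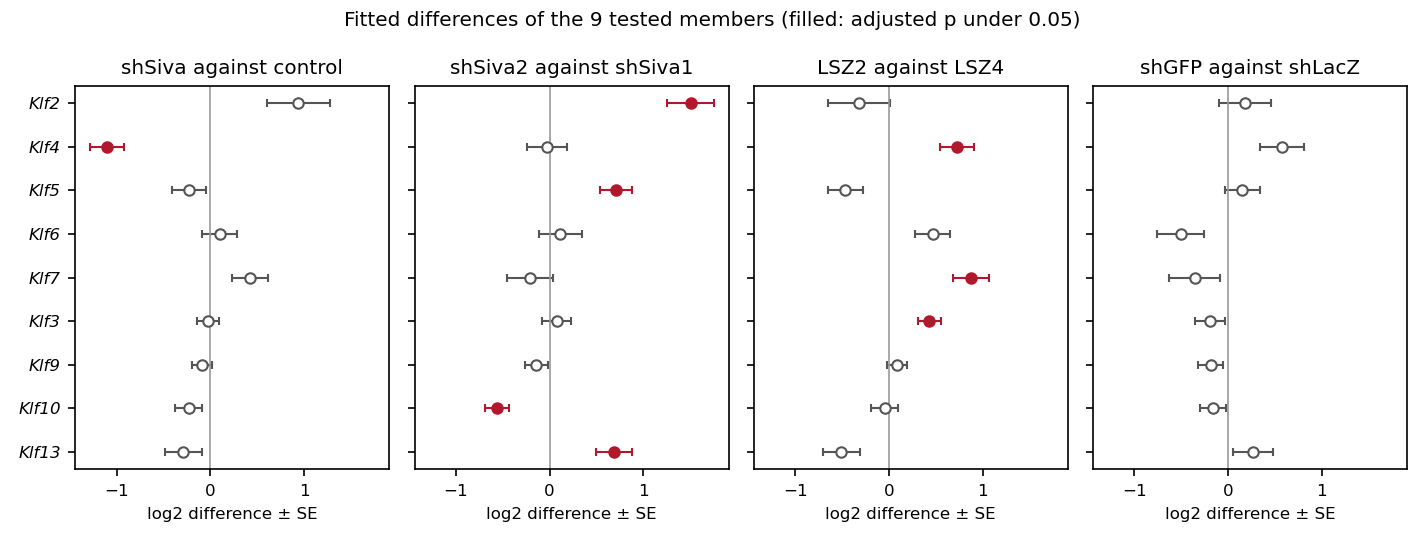
Fitted log2 differences (points) with their standard errors (bars) for the 9 tested members in 4 comparisons; filled points have an adjusted p under 0.05. Klf4 is the filled point of shSiva against control, 4 points are filled between the Siva hairpins, 3 between the lines and 0 between the control hairpins.

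Between the control hairpins 0 of 9 members were called, beside 0.00437% of all genes; 1 of the 9, Klf4, had an unadjusted p under 0.05. The largest differences of shGFP from shLacZ were 0.57 (SE 0.24, adjusted p = 0.346) for Klf4 and -0.51 (SE 0.25, adjusted p = 0.346) for Klf6. Both were found in LSZ4, where shGFP lay 0.98 above shLacZ for Klf4 and differed by -0.82 for Klf6, while in LSZ2 the Klf4 groups were -0.09 apart. shGFP and shLacZ cells also differed in vector and in puromycin. In LSZ4 the shGFP arrays were dimmer too, with 75th percentiles of 425 and 455 against 893 and 578 with shLacZ. Hairpin, vector, selection and array brightness therefore cannot be told apart here. Over 13 alternatives other than single left-out arrays, the difference ran from -0.03 to 0.63 for Klf4 and from -0.70 to -0.02 for Klf6.

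Between the lines 3 of 9 members were called, all higher in LSZ2, beside 22.4% of all genes, 7.15% higher and 15.3% lower. That share depended on single arrays: it was 5.83% without LSZ2 shLacZ replicate 1 and 53% without LSZ4 shLacZ replicate 1. With brightness as a covariate it was 4.16%, with 599 genes higher and 355 lower. The median of the 9 was 0.09 and that of all genes -0.24. Klf7 was 2.93 ± 0.11 (SD, n = 7) in LSZ2 and 2.02 ± 0.57 (SD, n = 8) in LSZ4, a difference of 0.88 (SE 0.19, adjusted p = 0.00889). Klf4 differed by 0.73 (SE 0.18, adjusted p = 0.0204), from 3.49 ± 0.80 (SD, n = 8) in LSZ4 to 4.13 ± 0.51 (SD, n = 7) in LSZ2. Klf3 was 5.14 ± 0.14 (SD, n = 7) against 4.71 ± 0.20 (SD, n = 8), a difference of 0.43 (SE 0.12, adjusted p = 0.0276). The lines overlapped for all 3 genes. With a random block for each line and hairpin Klf4 (adjusted p = 0.0706) and Klf3 (adjusted p = 0.0916) were no longer called. The Klf3 call was lost, with adjusted p up to 0.0757, in 9 of the 15 fits that left out an array: LSZ2 shGFP replicate 1, either LSZ4 shGFP replicate, either LSZ2 shLacZ replicate, LSZ4 shLacZ replicate 2, LSZ2 shSiva1 replicate 1, LSZ4 shSiva1 replicate 2 or LSZ4 shSiva2 replicate 2. Without LSZ4 shLacZ replicate 1 or LSZ4 shSiva1 replicate 1, Klf13 (-0.58 and -0.62), Klf5 (-0.50 and -0.58) and Klf6 (0.57 and 0.52) were called as well, with adjusted p from 0.0114 to 0.0395, but these fits called 53% and 50.3% of all genes.

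Several members differed between the brighter and the dimmer array of a group, in both lines, with the largest differences in LSZ4. The share of all genes that differ in this way was not counted. Replicate 1 was the brighter array in most groups, so brightness and replicate number partly ran together. Each group of 2 arrays holds a brighter and a dimmer one, and the Klf4 level was lower on the brighter array in 7 of 7 such pairs, with the largest difference, -0.66, in the LSZ4 shSiva1 pair. Klf6 and Klf7 were higher on the brighter array in 6 of 7 pairs, by up to 0.83 and 0.92, both in the LSZ4 shSiva2 pair. Klf5 was lower on the brighter array in 6 of 7 pairs, and Klf2 and Klf13 in 5 of 7, with differences down to -0.42, -0.72 and -0.54. Scaling to the 75th percentile therefore leaves differences within pairs that are of the same size as some differences between groups. With brightness as a covariate, chosen after seeing the data, Klf4 fell by 1.04 (SE 0.09, adjusted p = 1.05e-05) over both lines, and from shSiva1 to shSiva2 Klf2 rose by 1.24, Klf5 by 0.54 and Klf13 by 0.48, while Klf10 fell by 0.53. Klf6 rose there too, by 0.36 (adjusted p = 0.0289), and 42.2% of all genes were called between these hairpins. In that fit, which called 29.1% of all genes over both lines, Klf2 rose by 1.02 (adjusted p = 0.0153) and Klf7 by 0.36 (adjusted p = 0.00871) over both lines, while the line differences of Klf7 (0.31, adjusted p = 0.199) and Klf3 (0.23, adjusted p = 0.306) did not pass. What sets the brightness of an array was not tested.

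**Figure D4:**
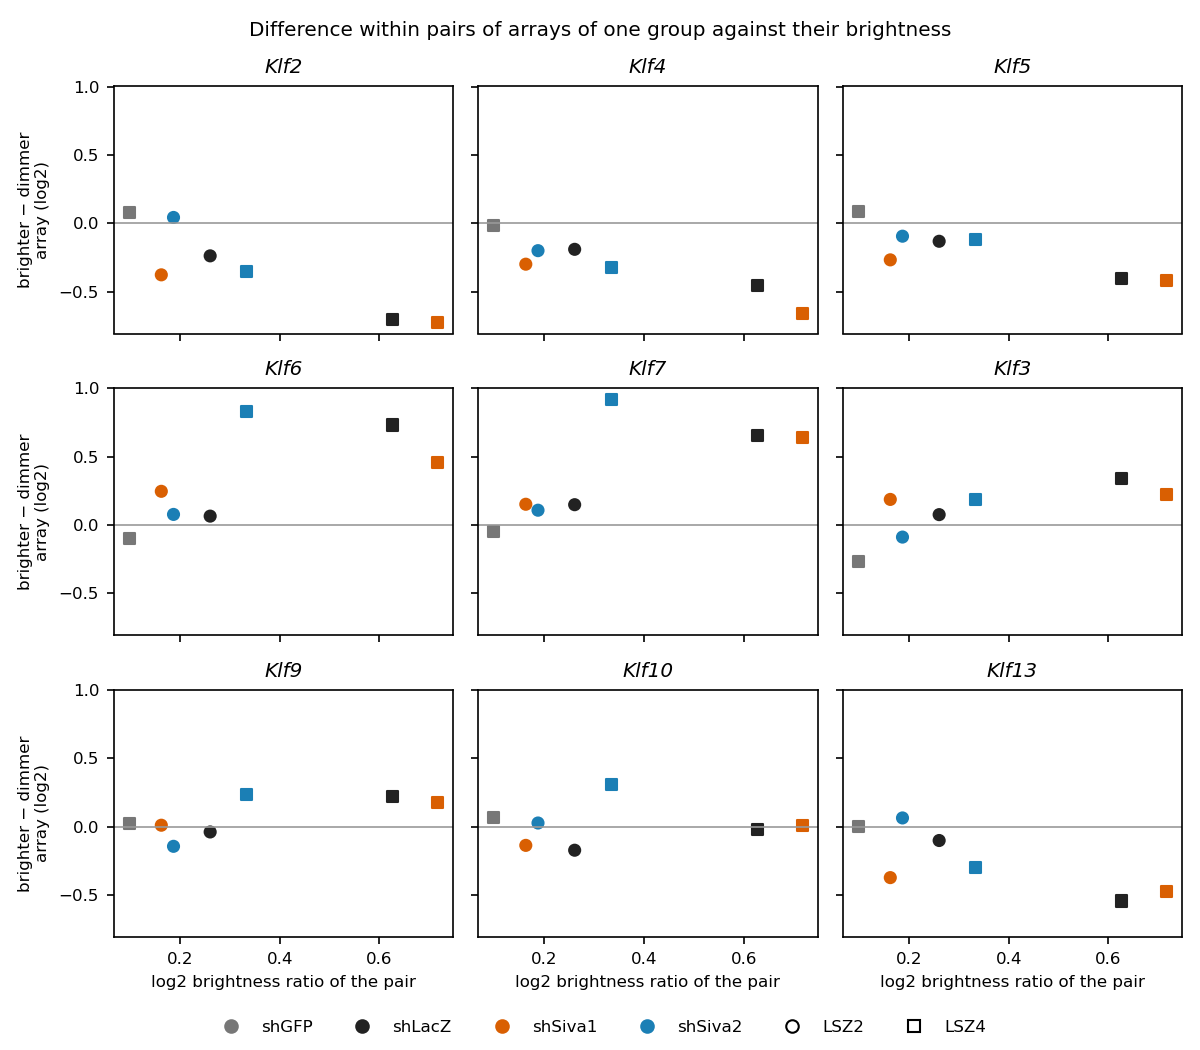
For each tested member, the log2 difference between the brighter and the dimmer array of a line and hairpin group (vertical) against the log2 ratio of their 75th percentile signals (horizontal), for the 7 groups of 2 arrays; circles are LSZ2, squares LSZ4, and colours the hairpins. Klf4 is below 0 in 7 of 7 pairs, and Klf6 and Klf7 reach 0.83 and 0.92.

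Genes around the family were followed in 4 lists, and the genes named below outside shSiva against control were chosen after their values were seen. Of 16 other Kruppel-like and Sp factor genes, 11 were tested, and 0 rose or fell with Siva knockdown (limma; 0 of 11 had an unadjusted p under 0.05), beside 9.99% of all genes called. The 3 of smallest p were Klf1, the erythroid factor, at -0.46 (SE 0.22, adjusted p = 0.198), Sp8 at -0.29 (SE 0.21, adjusted p = 0.405) and Sp2 at -0.25 (SE 0.19, adjusted p = 0.431). From shSiva1 to shSiva2, 2 of the 11 rose, beside 21% of all genes called: Klf16 by 1.29 (adjusted p = 0.00242) and Sp8 by 0.58 (adjusted p = 0.0381). Between the lines Sp4 was 0.79 higher in LSZ2 (adjusted p = 0.0282), and Sp6 and Sp8 were lower, which makes 3 of 11 beside 22.4% of all genes.

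Of 15 cofactors and ubiquitin ligases of these proteins, such as the CtBP, Sin3 and p300 genes, all 15 were tested and 0 were called with Siva knockdown (2 of 15 had an unadjusted p under 0.05), beside 9.99% of all genes. Ctbp1, the corepressor used by Klf3, read -0.50 (SE 0.23, adjusted p = 0.187), and Ep300, an acetyltransferase, -0.19 (SE 0.11, adjusted p = 0.278). Fbxo32, a ubiquitin ligase subunit, read 0.76 (SE 0.35, adjusted p = 0.189), with 8 shSiva arrays spread from -3.88 to -1.87. Mean Fbxo32 was -3.64 in controls (from -3.90 to -3.20), -1.98 with shSiva1 and -3.76 with shSiva2. The shSiva2 mean thus lay within the control range, and the shSiva1 mean lay above it. Between the Siva hairpins Fbxo32 was the 1 of 15 called, beside 21% of all genes, and fell by 1.78 (SE 0.15, adjusted p = 2.12e-06) with shSiva2.

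Of 24 upstream regulators of KLF genes, 22 were tested, and 2 fell and 0 rose with Siva knockdown, a share near the 9.99% of all genes. Cebpb fell from 3.02 ± 0.44 (SD, n = 7) to 2.16 ± 0.39 (SD, n = 8), by 0.84 in the fit (SE 0.20, adjusted p = 0.0166). Mef2d, a MEF2 factor (factors known to activate Klf2), fell by 0.67 (SE 0.18, adjusted p = 0.0256), and Tgfbr2, a receptor of TGF-beta, read 0.72 (SE 0.26, adjusted p = 0.0894). The median of the 22 was 0.15, beside -0.11 over all genes. From shSiva1 to shSiva2, 3 of 22 rose and 3 fell, beside 21% of all genes. Egr1, an immediate early factor, rose by 2.10 (adjusted p = 6.76e-05), Tgfbr2 by 1.20 (adjusted p = 0.000159) and Foxo1 by 0.48 (adjusted p = 0.0267). Cebpd fell by 1.21 (adjusted p = 0.00275), Thra by 0.74 (adjusted p = 0.0189) and Smad4, the common mediator of TGF-beta signals, by 0.71 (adjusted p = 0.00431).

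Of 29 genes known as targets of single KLF proteins in other cells, 25 were tested, and 1 rose and 2 fell with Siva knockdown, beside 9.99% of all genes. Alpi, an intestinal alkaline phosphatase that Klf4 activates, fell by 2.21 (SE 0.45, adjusted p = 0.00612), from -1.34 ± 1.09 (SD, n = 7) to -3.45 ± 1.31 (SD, n = 8). Pparg, the fat cell regulator, fell by 0.63 (SE 0.17, adjusted p = 0.0281), and Smad7, an inhibitor of TGF-beta signals, rose by 0.59 (SE 0.17, adjusted p = 0.0415). The Siva hairpins differed for both. Mean Pparg was 5.48 in controls, 4.47 with shSiva1 and 5.19 with shSiva2, a limma difference between the hairpins of 0.72 (SE 0.14, adjusted p = 0.0016). Mean Smad7 was 1.05, 1.94 and 1.30 in the same order. The median of the 25 was -0.27, beside -0.11 over all genes, and Cdh1 and Krt19 of this list also count among the epithelial markers. From shSiva1 to shSiva2, 10 of 25 rose and 3 fell, beside 21% of all genes. The largest rises were Krt4, a keratin of stratified epithelium, at 4.53 (adjusted p = 1.9e-05) and Itgb7, a lymphocyte integrin, at 1.97 (adjusted p = 8.37e-05). Nos3, the endothelial nitric oxide synthase that Klf2 induces in endothelium, rose by 1.16 (adjusted p = 0.00152), and the cell cycle inhibitor Cdkn1b by 0.81 (adjusted p = 0.00017). Ccl5, which Klf13 activates in T cells, had means of -4.23 with shSiva1 and -4.41 with shSiva2, while Klf13 rose. Whether any listed gene follows its factor here was not tested. Alpi (-1.99, adjusted p = 0.000422, well above background on 3 of 4 shSiva2 arrays) and Smad7 (-0.64, adjusted p = 0.0152) fell. Klf4 itself read -0.03 (SE 0.22, adjusted p = 0.940 in the limma fit) between these hairpins. Slc2a4, the insulin-responsive glucose transporter, was well above background on 1 of 7 control, 4 of 4 shSiva1 and 0 of 4 shSiva2 arrays. It was at least 2.27-fold lower with shSiva2 than with shSiva1 (adjusted p = 3.04e-05). Such bounds set the mean of the brighter group against, for each dim array, the higher of its lowest signal well above background and the probe's own.

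Markers of other cell types were read beside these differences. Of the 4 endothelial markers, Cdh5 and Tek were well above background on 0 of 15 arrays and Pecam1 and Kdr on 15 of 15. Pecam1 fell with Siva knockdown (-0.65, adjusted p = 0.0172), and Kdr read -0.20 (adjusted p = 0.611). The summed endothelial signal, relative to the array's 75th percentile, ran from 4.01 to 12.2 in controls, 3.43 to 7.21 with shSiva1 and 4.43 to 9.80 with shSiva2. Of the 6 fibroblast markers, Pdgfra, Pdgfrb, Dcn and Lum were on 0 of 15 arrays. Col1a1, on 1 of 7 control, 4 of 4 shSiva1 and 0 of 4 shSiva2 arrays, was at least 3.16-fold lower with shSiva2 than with shSiva1 (adjusted p = 6.81e-05). The fibroblast sums ran from 0.0673 to 0.118, 0.126 to 0.223 and 0.0749 to 0.106 in the same order. Of the blood and immune markers, none of the 4 tested was called in either comparison, with sums from 10.1 to 13.0, 9.04 to 11.4 and 10.1 to 12.4. Of the 5 lung markers, Sftpb was on 7 of 7 control, 0 of 4 shSiva1 and 4 of 4 shSiva2 arrays. It was at least 8.71-fold higher with shSiva2 than with shSiva1 (adjusted p = 0.000145). Scgb1a1 was called higher (adjusted p = 0.0234), though well above background on 1 of 4 and 3 of 4 of these arrays. The lung sums ran from 0.0888 to 0.321, 0.0472 to 0.0763 and 0.129 to 0.516. Of the 6 epithelial markers Epcam rose with Siva knockdown (0.68, adjusted p = 0.00979) and Cdh1 from shSiva1 to shSiva2 (1.01, adjusted p = 0.00275). The epithelial sums ran from 1110 to 2768 in controls, 1130 to 1812 with shSiva1 and 1216 to 2281 with shSiva2. The part of these markers in the Klf2, Klf5, Klf10 and Klf13 differences was not tested.

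The genes whose 8 line and hairpin means were nearest to those of Klf4, each centred on its own mean, were Alppl2 and Evpl. Evpl, which encodes the cornified envelope protein envoplakin, differed from Klf4 by a root mean square of 0.24, against the 0.70 by which Klf4 itself varied over the 8 groups, and fell by 0.72 (SE 0.20, adjusted p = 0.0359) with Siva knockdown. Alppl2, an alkaline phosphatase gene, had a root mean square difference of 0.19, but passed the background test on 5 of the 7 arrays with control hairpins and 2 of the 8 with shSiva. Its fitted difference of -1.02 (SE 0.25, adjusted p = 0.0157) is in part a difference near background. Both genes were picked for likeness to Klf4 over the arrays that gave these differences, so the differences support nothing further.

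**Figure D5:**
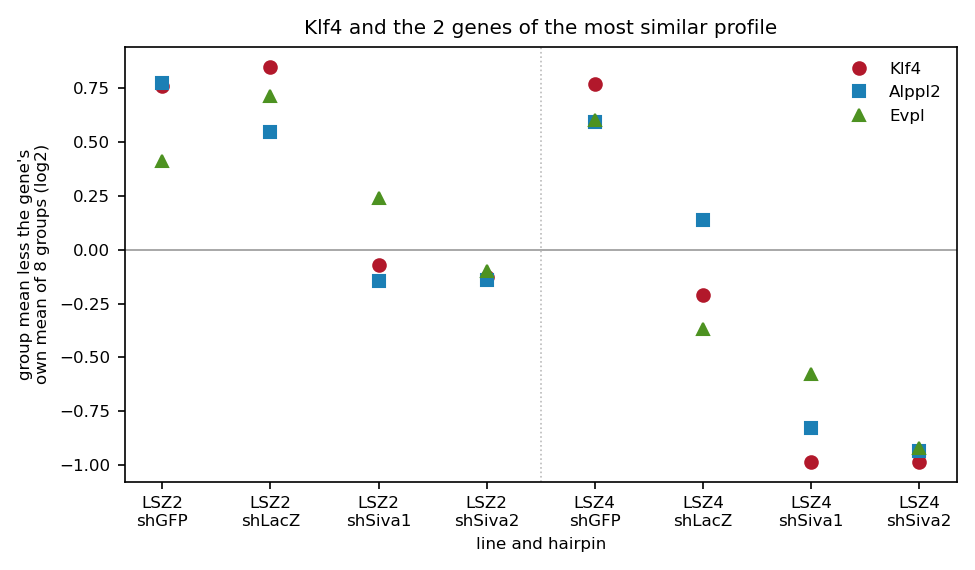
Means of the 8 line and hairpin groups for Klf4, Alppl2 and Evpl, each less the gene's own mean over the 8 groups (log2), LSZ2 left and LSZ4 right of the dotted line. All 3 genes are highest in the LSZ2 controls and LSZ4 shGFP and lowest in LSZ4 with the Siva hairpins, where Klf4 and Alppl2 reach -0.98 and -0.93.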

How the data were processed

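RNA of 15 samples was hybridised to Agilent 1-colour arrays (design mm9, per the file headers). The deposited scanner files hold intensity per spot, which the authors' scanner software (Feature Extraction 10.7.3.1) had background-corrected, as the headers state. The deposited value table holds log2 values, and set against the scanner files it equals log2 signal less the array's 75th percentile with each probe centred on its median (r over 0.999, column medians from -0.26 to 0.53).

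Levels were computed as log2 of gProcessedSignal less the array's 75th percentile. A probe was kept if 4 or more arrays had it well above background and no more than 3 lacked it (32188 of 55681), and the probe of highest mean stood for a gene (22908 genes). limma 3.58.1 in R 4.3.3 was fitted with line and arm or hairpin as terms, with Benjamini-Hochberg adjustment over all genes and a threshold of 0.05. The code was tested on simulated data. The number of arrays limits the precision.

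The members, the 4 gene lists and the marker lists were chosen with earlier results of these data known. Named were all members, Siva1, the 3 genes of smallest p in shSiva against control in each list, whether or not they passed, and the 2 genes nearest to each member called in that comparison. Markers and genes of other comparisons were named after their values were seen. Alternatives were median and quantile scaling, normexp background correction (offset 50), the deposited value table, other filters and probe rules, blocks, group means, single hairpins, leaving out each array and, after seeing the data, brightness and omission of LSZ4 shGFP.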

Additional observations from a re-analysis of the deposited data

How the results depend on the processing

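Klf4 fell with Siva knockdown over both lines in all alternatives run, from 15 fits without 1 array each to single hairpins. The members called numbered 1 there, 2 with 1 mean for each of the 8 groups (Klf2 and Klf4), and 3 with shSiva1 alone, 3 with shSiva2 alone and 3 with brightness as a covariate, where 19.5%, 11.1% and 29.1% of all genes were called. In LSZ2 quantile normalization, the 8 means and the brightness covariate each called 1 member, beside 1.76%, 5.68% and 8.27% of all genes. In LSZ4 the count was 0 with a random block for each line and hairpin (Klf4 adjusted p = 0.0675), 0 without both LSZ4 shGFP arrays, 2 with the 8 means and 3 with brightness, beside 1.22%, 1.48%, 16.2% and 17.1%. Between the lines it was 1 with the random block (Klf7), 6 with the 8 means and 1 with brightness (Klf4), beside 4.64%, 48.8% and 4.16%. The causes were not tested. Leaving out 1 array gave 1 to 2 members pooled, 1 to 2 in LSZ4, 2 to 6 between the lines, 3 to 4 between the Siva hairpins and 0 in LSZ2, in the line difference and between the control hairpins, with Siva1 from -2.63 to -2.34. The share of all genes called then ran from 6.78% to 16.6% pooled, 2.18% (without LSZ4 shGFP replicate 2) to 25.9% (without LSZ4 shLacZ replicate 1) in LSZ4 and 5.83% to 53% between the lines. Of all alternative values of single members, 1753 stayed on their side of the threshold, 26 gained and 21 lost a call, and none that was called turned sign.

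Calls over all genes for Siva knockdown numbered 2288, and 810 with normexp, 962 with the random block, 4545 with the 8 means, 4475 with shSiva1 alone, 1305 and 704 with shGFP or shLacZ as the controls, 1348 without both LSZ4 shGFP arrays, 3802 without LSZ4 shLacZ replicate 1 and 6669 with brightness. Of the pooled calls 43.3% were higher, 53.8% with normexp, and from 29.4% (without LSZ4 shLacZ replicate 1) to 67.2% (controls limited to shLacZ) over the alternatives. Between the lines 31.9% were higher, and 45.5% with quantile normalization, which moved the median of all genes from -0.24 to -0.07; with brightness these were 62.8% and 0.03. Replicate numbers were not taken as a pairing in the main fit. Over 21 pairs of groups the correlation of deviations ran from -0.21 to 0.73 (median 0.23), and 14 were over 0.1, not all. Replicate 1 was the brighter array in most groups, so replicate number and brightness partly ran together. What the correlations reflect was not tested. With the replicate block 1 member was called pooled (Klf4 -1.12, adjusted p = 0.00113), 3 between the lines and 4 between the Siva hairpins, as without it, while calls over all genes went from 2288 to 2893 pooled and from 4813 to 6726 between the Siva hairpins. Klf15, below background, is limited by signal.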
